A study of Mus musculus with 8 samples.

Results

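The necroptosis and pyroptosis machinery was followed through 8 genes chosen by name for their known roles: Zbp1, Ripk1, Ripk3, Mlkl, Casp1, Casp4, Casp8 and Gsdmd. They are 8 of the 23478 genes in the count table, and all 8 had enough reads to be among the 17069 genes tested. RNA was sequenced from 8 mouse libraries in 4 groups of 2 libraries, labelled as biological replicates, all with the genotype given as WT. DCC control and DCC IFN-gamma are disseminated cancer cells out of mouse bone marrow, from animals whose breast cancer had metastasised spontaneously, kept in culture without or with interferon-gamma, a cytokine that CD4 Th1 cells secrete. Early lesion is a group of cancer cells isolated directly from early mammary lesions, with neuT, an activated rat Erbb2 oncogene, in its title. TUBO is a breast cancer cell line, so both of its libraries come from the same line. The series sets out to compare disseminated cells with primary and metastatic tumours and to follow the influence of CD4 Th1 immunity on gene expression. No source used here gives the dose and duration of interferon-gamma, the ages of the mice or the promoter behind any transgene. Nothing says that replicates came from separate animals or cultures, so p-values measure only the spread between these libraries, which may be technical.

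Necroptosis and pyroptosis are forms of cell death in which the plasma membrane is opened from within. In necroptosis, RIPK1, or the nucleic acid sensor ZBP1, engages the kinase RIPK3, which phosphorylates MLKL, and MLKL then permeabilises the membrane. The protease CASP8 starts apoptosis and cleaves RIPK1 and RIPK3, which holds necroptosis back. In pyroptosis, CASP1 (activated by inflammasomes) or CASP4 (which senses cytosolic lipopolysaccharide in mouse cells and is also called caspase-11) cleaves GSDMD, whose free end forms membrane pores. Several of these genes are known targets of interferon signalling. The RNA levels below do not measure cleavage, phosphorylation or death.

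Each library had between 15432210 and 30168475 reads on genes. Levels are given as CPM, counts scaled to a common library size, and 3 counts stood for 0.0953 to 0.183 CPM. The libraries DCC control 1 and early lesion 2 were unlike the rest: 63.7% and 57.2% of their reads were not counted for any gene, against 35.2% to 45.1% in the other 6 libraries. Of all their reads, 49.2% and 44.1% fell outside the counted genes, against 18.3% to 31% elsewhere. In these 2 libraries 47.7% and 63.6% of 1457 olfactory and vomeronasal receptor genes had a count. The share was 11.9% in DCC control replicate 2 and 1.03% to 2.06% in the remaining libraries. DCC control replicate 2 also held the 45.1% and the 31% above, so both DCC control libraries exceeded the DCC IFN-gamma libraries in these measures. Levels of a few counts, such as 1 count of Zbp1 and 6 of Casp1 in DCC control replicate 1, or 7 of Ripk3 in early lesion replicate 2, lie among the levels of such receptors. Per exon length, 45.9%, 9.45% and 8.20% of the 1439 receptor genes with a length were at or above these 3 values. For the 3 counts of Zbp1 in DCC control replicate 2 this share was 8.55%.

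The labelled cell types were compared with marker genes. The DCC libraries lacked the epithelial profile of the other groups. The 10 epithelial markers summed to 4.38 and 2.81 CPM in DCC control and to 0.367 and 0.459 CPM in DCC IFN-gamma, against 2827 to 6001 CPM in early lesion and TUBO. Epcam and Krt18, which define epithelial cells, were at 0 in DCC control replicate 1, while in DCC control replicate 2 only Esrp1 was at 0. In the DCC IFN-gamma libraries 8 and 7 of the 10 markers were at 0. Among these, Krt14 and Krt5 were also at 0 in early lesion replicate 1 and TUBO replicate 2, and Krt5 in TUBO replicate 1. Stromal markers (7 collagen and fibroblast genes) summed to 7419 and 8545 CPM in DCC control and to 708 and 1148 CPM in DCC IFN-gamma, against at most 16.9 CPM in the other groups. The plot of summed marker levels shows this split. The label "disseminated cancer cells" is kept below as a group name only.

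**Figure D1:**
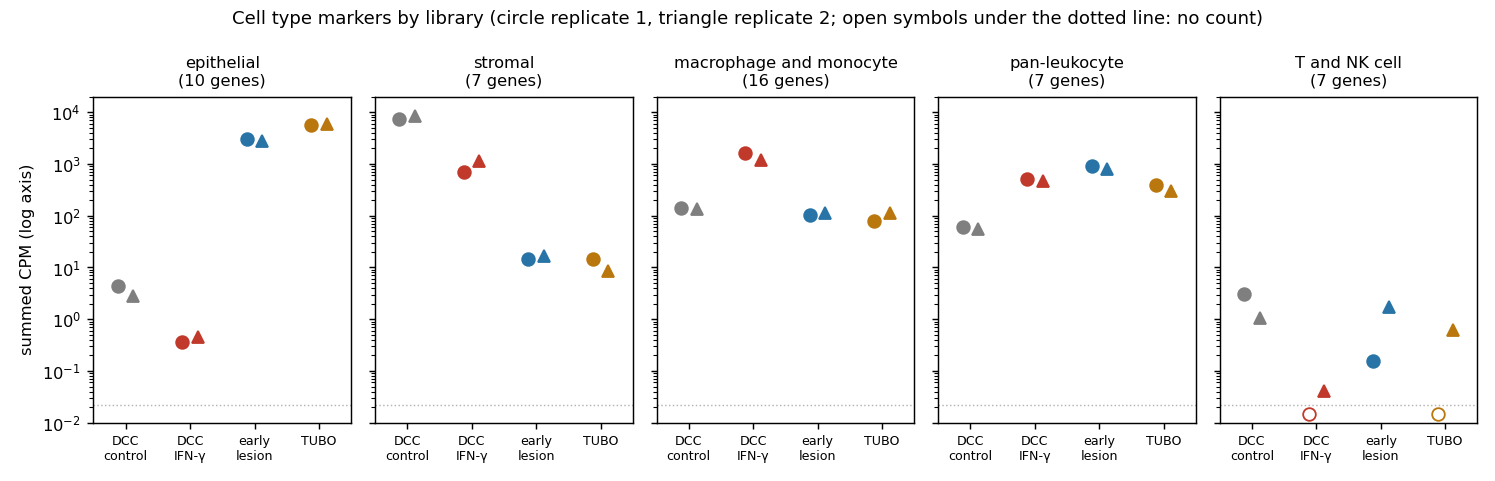
Summed level of cell type markers in each of the 8 libraries, in CPM on a log axis, with 1 panel per marker list and 1 point per library. Epithelial markers are at 4.38 CPM or less in all 4 DCC libraries and at 2827 CPM or more in early lesion and TUBO, and macrophage markers are highest in DCC IFN-gamma, at 1628 and 1198 CPM.

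Promoter sequences from RefSeq (GRCm38.p6, windows of 250 bases ending before an annotated start) were found for 6 members: Ripk1, Ripk3, Mlkl, Casp1, Casp4 and Casp8. They were searched on both strands for the interferon-gamma-activated sequence GAS, TTCNNNGAA, present in 7.02% of 32851 mouse promoter windows, and for the interferon-response core (GAAA, any 2 bases, GAAA), present in 2.98%. The closer-spaced form GAAANGAAA, present in 2.68%, was added after the sequences had been seen. Shown first are 3 windows of genes whose RNA was higher in DCC IFN-gamma than in DCC control, to set a window with a match beside windows without one. Casp8 (chr1:58802252-58802501, plus strand), Mlkl (chr8:111338206-111338455, minus strand) and Casp1 (chr9:5298267-5298516, plus strand) are given 5′ to 3′, with a match in capitals.
Casp8: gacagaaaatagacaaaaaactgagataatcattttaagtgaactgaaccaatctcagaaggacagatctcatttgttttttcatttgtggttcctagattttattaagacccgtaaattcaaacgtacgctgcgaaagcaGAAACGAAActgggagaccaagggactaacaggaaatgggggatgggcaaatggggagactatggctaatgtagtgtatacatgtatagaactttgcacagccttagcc
Mlkl: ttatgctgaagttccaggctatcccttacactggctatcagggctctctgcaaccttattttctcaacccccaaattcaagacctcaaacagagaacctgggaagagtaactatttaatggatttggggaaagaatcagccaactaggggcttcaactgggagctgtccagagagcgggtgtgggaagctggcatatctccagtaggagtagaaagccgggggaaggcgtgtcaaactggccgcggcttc
Casp1: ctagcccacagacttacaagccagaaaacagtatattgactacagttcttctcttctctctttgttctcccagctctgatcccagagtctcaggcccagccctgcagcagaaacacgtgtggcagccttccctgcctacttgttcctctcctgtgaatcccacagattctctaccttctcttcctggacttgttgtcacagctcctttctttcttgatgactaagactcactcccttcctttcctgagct
The Casp8 window held no match to GAS or to the core with 2 bases between. Its 1 match, the 9 bases GAAACGAAA starting at position -109 relative to the start, is to the form added after the sequences were seen. The share of 2.68% is therefore no measure of how unusual this match is. The Mlkl and Casp1 windows held no match to any of the 3 motifs, which says only that these letters are not in these windows. None of the 3 windows overlapped an exon of GENCODE M21, whereas the second Ripk1 window described next had 171 of its 250 bases in exons.

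Ripk1 has 2 annotated starts with a window, and the second held 2 GAS matches of the same 9 letters, at positions -108 and -11. They are shown as stretches of 29 bases, chr13:34002756-34002784 and chr13:34002853-34002881 on the plus strand, with the match in capitals.
Ripk1 upstream match: agaagctggtTTCCCGGAAggggcggagg
Ripk1 match nearest the start: acttcaaacgTTCCCGGAAatcgaaaagc
The window of the first Ripk1 start, the window of Ripk3 (8 bases in exons) and both windows of Casp4 (21 and 32 bases in exons) held no match. A match is a string of letters and was not tested for binding.

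Zbp1, the nucleic acid sensor that recruits RIPK3, lies on chromosome 2 (173206612 to 173218923, minus strand, GRCm38). In DCC control it had 1 and 3 counts, in DCC IFN-gamma 10322 and 5427 counts, in early lesion 42 and 47 counts, and in TUBO 13 and 25 counts. Only the DCC IFN-gamma libraries were high, at 378 and 226 CPM, and no other library was above 2.10 CPM. The DCC IFN-gamma and DCC control libraries were 3202-fold apart by their summed counts (95% exact interval 1250 to 11752, counting error only). The fitted log2 fold change was 11.55 ± 0.56 (SE, adjusted p = 6.88e-06). In a bulk library a change in the number of cells of a type and a change in RNA per cell cannot be told apart, for this and all later results. Zbp1 in DCC control was also below early lesion (ratio of early lesion to DCC control 17.2, interval 6.49 to 64.5, adjusted p = 0.00215) and TUBO (ratio 7.17, interval 2.58 to 27.7, adjusted p = 0.0259). The call against early lesion was lost in a fit of only those 2 groups (adjusted p = 0.103). The call against TUBO was lost in the 2-group fit (0.108) and without DCC control replicate 1 (0.115), DCC control replicate 2 (0.122) or TUBO replicate 2 (0.108). Early lesion and TUBO, next to each other in the order of levels, did not differ past the threshold (log2 fold change of TUBO over early lesion -1.28 ± 0.46, adjusted p = 0.0807). DESeq2 called that difference (adjusted p = 0.0108), as did the fits without DCC IFN-gamma replicate 1 (0.0135) or replicate 2 (0.00643).

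Ripk1, the kinase at the branch point between survival signalling and death, lies on chromosome 13 (34002363 to 34037147, plus strand), and its exons overlap those of Gm17084 and, on the other strand, Serpinb6a. Ripk1 was at 85.0 and 91.8 CPM in DCC control, 147 and 140 CPM in DCC IFN-gamma, 58.0 and 54.2 CPM in early lesion, and 38.5 and 43.2 CPM in TUBO. The 4 groups did not overlap, and their order was DCC IFN-gamma, DCC control, early lesion, TUBO. Interferon-gamma cultures were above DCC control by 0.70 ± 0.14 on the log2 scale (adjusted p = 0.00670), which no longer passed once DCC control replicate 1 was left out (adjusted p = 0.0669). DCC control was above early lesion (0.66 ± 0.14, adjusted p = 0.00447) and TUBO (1.11 ± 0.15, adjusted p = 1.50e-04). The first of these 2 calls was lost when DCC control replicate 1 and early lesion replicate 2 were both left out (adjusted p = 0.107). TUBO was below early lesion by a margin close to the threshold (-0.46 ± 0.15, adjusted p = 0.0435), and this call was lost without any 1 of the DCC control, early lesion or TUBO libraries.

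Ripk3, the kinase that activates MLKL, lies on chromosome 14 (55784995 to 55788865, minus strand) and was the member with the fewest reads. Its counts were 38 and 34 in the DCC IFN-gamma libraries, 7 in early lesion replicate 2, and 0 in the other 5 libraries. Thus the DCC IFN-gamma libraries were the only ones with more than 7 counts, at 1.39 and 1.42 CPM. Against a floor of 3 counts per library, Ripk3 was at least 9.33-fold higher in DCC IFN-gamma than in DCC control and at least 12.9-fold higher than in TUBO. Neither difference passed the test (adjusted p = 0.143 and 0.0849). In a fit of only the 2 groups compared both passed (adjusted p = 0.0156 and 0.00749), and the one against TUBO was also called by DESeq2 (adjusted p = 0.0338) and without early lesion replicate 1 (0.0395) or replicate 2 (0.0352). Where a library had 0 counts, a level below the floor was not detectable at this depth.

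Mlkl, the pseudokinase that opens the membrane in necroptosis, lies on chromosome 8 (111311797 to 111338177, minus strand). It was at 1.64 and 1.19 CPM in DCC control, 102 and 65.4 CPM in DCC IFN-gamma, 69.6 and 63.1 CPM in early lesion, and 34.2 and 32.6 CPM in TUBO. DCC control was the low group, and DCC IFN-gamma and early lesion overlapped. Mlkl was 60.1-fold higher in DCC IFN-gamma than in DCC control (log2 5.91 ± 0.29, adjusted p = 1.29e-06). DCC control was below early lesion (-5.57 ± 0.29, adjusted p = 2.25e-07) and TUBO (-4.58 ± 0.28, adjusted p = 6.78e-07). Between DCC IFN-gamma and early lesion the difference did not pass (0.34 ± 0.22, adjusted p = 0.248); without DCC IFN-gamma replicate 2 it did (0.58, adjusted p = 0.0228), and without replicate 1 its sign turned (-0.02). TUBO was below both, by 1.32 ± 0.22 against DCC IFN-gamma (adjusted p = 7.40e-04) and by 0.99 ± 0.22 against early lesion (adjusted p = 0.00875). The second call was lost without TUBO replicate 2 (adjusted p = 0.0632) or early lesion replicate 1 (0.0518).

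Casp8, the apoptosis initiator that restrains necroptosis, lies on chromosome 1 (58795374 to 58847503, plus strand). Casp8 was at 23.1 and 17.6 CPM in DCC control, 75.9 and 59.7 CPM in DCC IFN-gamma, 62.4 and 60.2 CPM in early lesion, and 48.8 and 47.9 CPM in TUBO. As with Mlkl, DCC control was the low group. Casp8 was higher in DCC IFN-gamma than in DCC control by 1.74 ± 0.19 (adjusted p = 1.77e-04), and DCC control was below early lesion (-1.60 ± 0.19, adjusted p = 8.79e-05) and TUBO (-1.25 ± 0.19, adjusted p = 4.16e-04). The 3 other groups did not differ from their neighbours past the threshold: DCC IFN-gamma against early lesion 0.15 ± 0.18 (adjusted p = 0.542) and TUBO against early lesion -0.34 ± 0.18 (adjusted p = 0.208). DCC IFN-gamma against TUBO was near it (0.49 ± 0.18, adjusted p = 0.0541; 0.0410 by DESeq2).

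**Figure D2:**
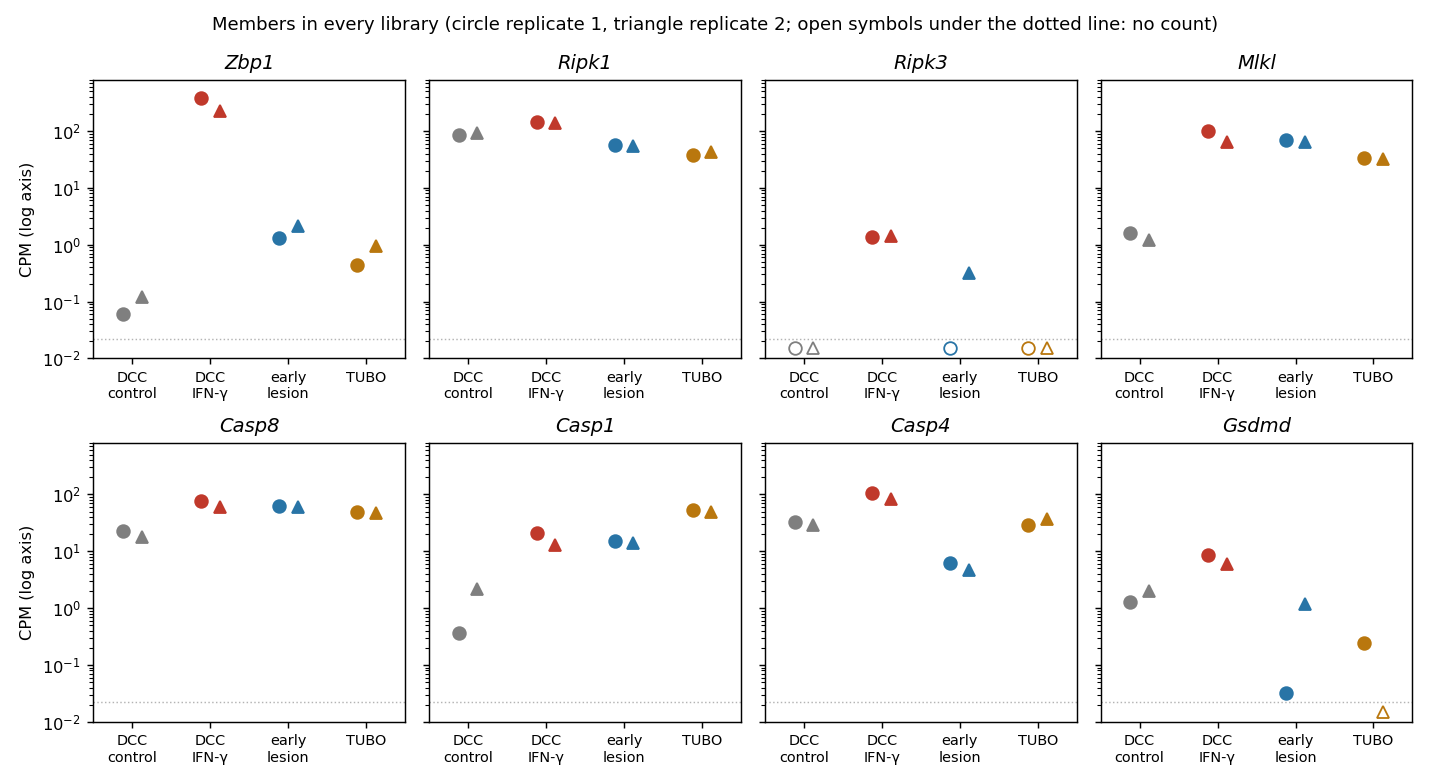
Level of each of the 8 members in each library, in CPM on a log axis with 1 panel per gene and 1 point per library, grouped as DCC control, DCC IFN-gamma, early lesion and TUBO. All 8 genes have both DCC IFN-gamma libraries above both DCC control libraries, and Casp1 is highest in TUBO.

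Casp1, the inflammasome protease that matures the cytokines IL1B and IL18 and cleaves GSDMD, lies on chromosome 9 (5298517 to 5307265, plus strand). It was at 0.365 and 2.14 CPM in DCC control, 20.6 and 13.0 CPM in DCC IFN-gamma, 15.4 and 14.0 CPM in early lesion, and 53.2 and 48.4 CPM in TUBO. TUBO was the high group and DCC control the low one, while DCC IFN-gamma and early lesion overlapped (0.19 ± 0.48, adjusted p = 0.764). Casp1 was higher in DCC IFN-gamma than in DCC control by 3.64 ± 0.57 (adjusted p = 0.00404). DCC control was below early lesion by 3.45 ± 0.57 (adjusted p = 0.00221) and below TUBO by 5.24 ± 0.60 (adjusted p = 3.00e-04). The size rests on the DCC control library kept: the rise with interferon-gamma was 2.98 without DCC control replicate 1 and 5.51 without replicate 2, and the difference from early lesion -2.78 and -5.32, all called. TUBO exceeded early lesion by 1.79 ± 0.49 (adjusted p = 0.0349) and DCC IFN-gamma (log2 of DCC IFN-gamma over TUBO -1.59 ± 0.48, adjusted p = 0.0311). Both of these last calls were lost when any 1 library of the 2 groups compared was left out. The first was also lost without either DCC IFN-gamma library (adjusted p = 0.0665 and 0.0844), and the second without early lesion replicate 1 (0.0524).

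Casp4, the sensor of cytosolic lipopolysaccharide, lies next to Casp1 on chromosome 9 (5308828 to 5336783, plus strand), and the exons of the 2 genes do not overlap. Casp4 was at 32.8 and 28.4 CPM in DCC control, 107 and 84.0 CPM in DCC IFN-gamma, 6.29 and 4.73 CPM in early lesion, and 29.4 and 36.2 CPM in TUBO. Its order differed from that of Casp1: DCC IFN-gamma was highest, early lesion lowest, and DCC control overlapped TUBO (-0.10 ± 0.21, adjusted p = 0.714). Casp4 was higher in DCC IFN-gamma than in DCC control by 1.64 ± 0.21 (adjusted p = 4.41e-04), than in TUBO by 1.54 ± 0.21 (adjusted p = 1.80e-04) and than in early lesion by 4.11 ± 0.24 (adjusted p = 4.26e-07). Early lesion was also below DCC control (DCC control over early lesion 2.46 ± 0.23, adjusted p = 1.23e-05) and TUBO (TUBO over early lesion 2.56 ± 0.23, adjusted p = 3.47e-05).

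Gsdmd, the pore former of pyroptosis, lies on chromosome 15 (75862327 to 75867408, plus strand). In DCC control it had 21 and 51 counts, in DCC IFN-gamma 235 and 142 counts, in early lesion 1 and 27 counts, and in TUBO 7 and 0 counts. DCC IFN-gamma was above all other libraries, at 8.61 and 5.92 CPM against 0 to 2.02 CPM, but the spread within early lesion was wide. The difference between DCC IFN-gamma and DCC control did not pass the test (2.13 ± 1.35, adjusted p = 0.283), although it did in a fit of only these 2 groups (2.11, adjusted p = 0.0166). Only the difference from TUBO passed, at a ratio of 58.0 by summed counts (interval 27.9 to 145, adjusted p = 0.0174), and this call was lost without TUBO replicate 2 (adjusted p = 0.0758). Without early lesion replicate 2, the library with many receptor counts, Gsdmd was also higher than in early lesion in DCC IFN-gamma (7.63, adjusted p = 0.00584) and in DCC control (5.50, adjusted p = 0.0269). The fold in those 2 fits rests on 1 count in the remaining early lesion library. DCC control and TUBO were 13.6-fold apart by summed counts (interval 6.29 to 35.1) without passing (adjusted p = 0.0847), and passed with DESeq2 (0.0243) and without early lesion replicate 1 (0.0142), early lesion replicate 2 (0.0165) or TUBO replicate 1 (0.0489).

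**Figure D3:**
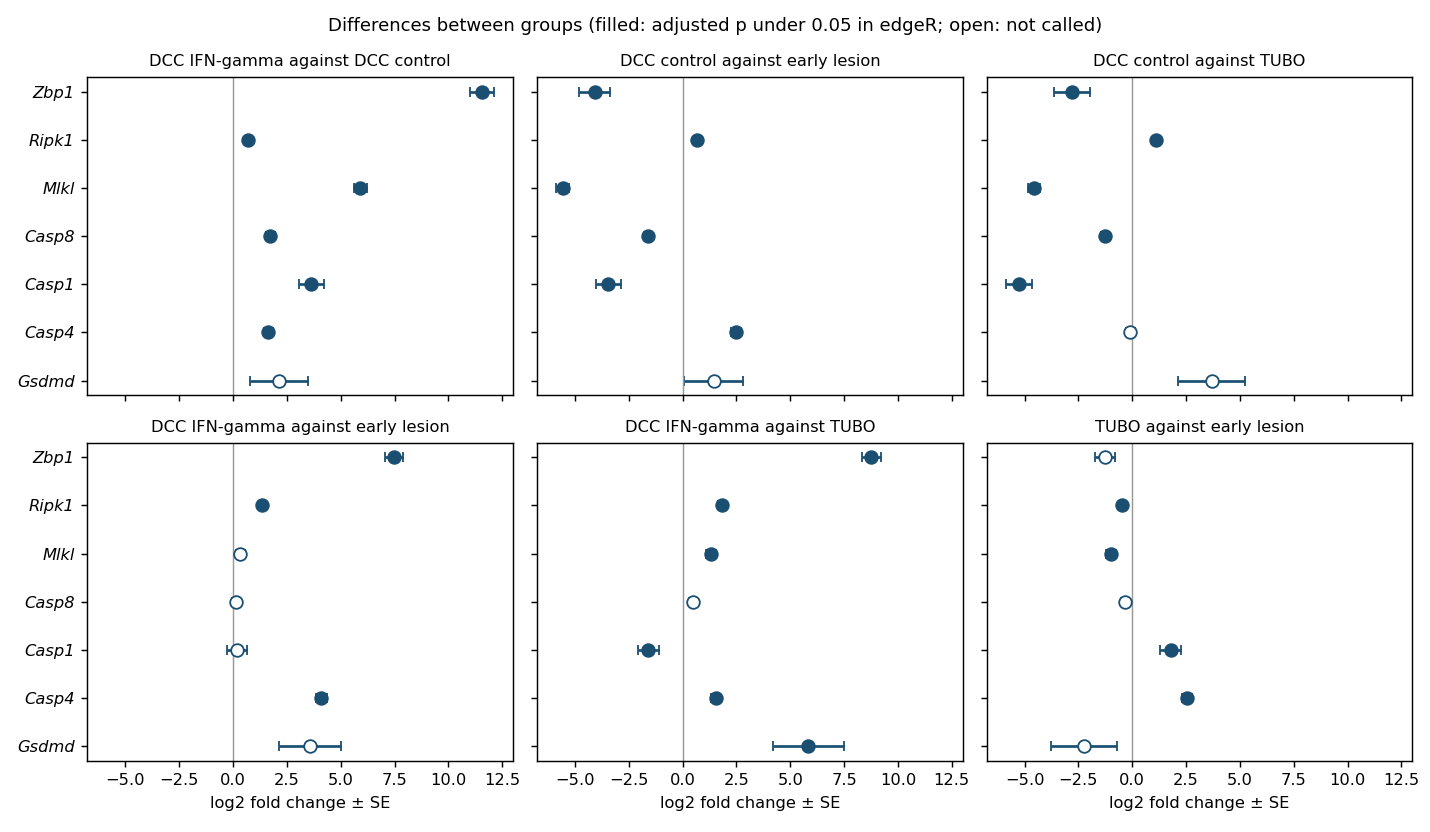
Log2 fold change of each member with its standard error in the 6 comparisons, filled where the adjusted p was under 0.05. Ripk3 is left out because its fitted value depends on the prior count. Zbp1 has the highest value in DCC IFN-gamma against DCC control, at 11.55.

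With interferon-gamma, 6 of the 8 members were called higher and 0 lower, beside 12.6% of all tested genes called higher and 8.83% called lower. Zbp1, Mlkl, Casp1, Casp4 and Casp8 were called in every alternative run, Ripk1 was not called without DCC control replicate 1, and Ripk3 and Gsdmd were not called. The count was 5 without DCC control replicate 1, and also 5 when early lesion replicate 2 was left out in addition. For all 8 members both DCC IFN-gamma libraries lay above both DCC control libraries, as they did for 28.3% of the tested genes, with 37.9% the other way round. The median log2 fold change was 2.13 over the 7 members without Ripk3 and 2.68 with Ripk3 at its lower bound, beside -0.20 over all tested genes. Of all calls, 58.8% were higher with TMM factors and 40.7% with upper quartile factors, which moved the all-gene median to -0.40. The 6 member calls were made under both.

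Between the cells of different origin the members went in both directions. In DCC control against early lesion, 2 members were called higher (Ripk1, Casp4; 19.1% of all genes) and 4 lower (Zbp1, Mlkl, Casp1, Casp8; 18.7%). Against TUBO, 1 was called higher (Ripk1; 22.1%) and the same 4 lower (19.9%). These comparisons share the DCC control libraries and are not independent of each other or of the interferon-gamma comparison. DCC IFN-gamma had 3 members called higher than early lesion (Zbp1, Ripk1, Casp4; 22.7%) and 0 lower (19.2%), and 5 called higher than TUBO (Zbp1, Ripk1, Mlkl, Casp4, Gsdmd; 24.4%) with 1 lower (Casp1; 19.6%). TUBO against early lesion gave 2 higher (Casp1, Casp4; 11.4%) and 2 lower (Ripk1, Mlkl; 12.7%). The groups compared did not overlap for 3 members higher and 4 lower in DCC control against early lesion (38.6% and 31.8% of all genes), and for 2 and 4 in DCC control against TUBO (45.6% and 31.0%). The same counts were 5 and 0 in DCC IFN-gamma against early lesion (35.4% and 34.5%), 7 and 1 in DCC IFN-gamma against TUBO (36.7% and 30.5%), and 2 and 4 in TUBO against early lesion (27.9% and 34.0%). In TUBO against early lesion the count of lower calls was 0 without TUBO replicate 2 or early lesion replicate 1. It was 1 without DCC control replicate 1, DCC control replicate 2, early lesion replicate 2 or TUBO replicate 1, and 3 without either DCC IFN-gamma library. The higher calls there became 1 without any 1 of the early lesion, TUBO or DCC IFN-gamma libraries. In DCC control against TUBO 2 members were called higher without early lesion replicate 1, early lesion replicate 2 or TUBO replicate 1, Gsdmd being the one added.

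Levels between genes are compared per kilobase of exon (RPKM, mean ± SD, n = 2). In DCC control Ripk1 stood highest at 10.6 ± 0.576 RPKM, followed by Casp4 at 8.25 ± 0.841 and Casp8 at 7.03 ± 1.34, and the other 5 members were below 1 RPKM. In DCC IFN-gamma the order began with Zbp1 at 85.7 ± 30.5, Mlkl at 36.3 ± 11.2, Casp4 at 25.7 ± 4.37 and Casp8 at 23.4 ± 3.95 RPKM. Mlkl led in early lesion at 28.8 ± 1.99 RPKM, and Casp1 led in TUBO at 33.9 ± 2.26 RPKM. The order of the members therefore differed in all 4 groups, with a different gene first in each. Ripk3 was the lowest member in DCC IFN-gamma, at 0.613 ± 0.00782 RPKM, with Gsdmd next at 3.06 ± 0.800 RPKM. Summed in 2 sets, Zbp1, Ripk1, Ripk3 and Mlkl reached 170 and 110 RPKM in DCC IFN-gamma against 10.9 and 11.6 RPKM in DCC control. Casp1, Casp4, Casp8 and Gsdmd reached 72.5 and 54.5 against 17.6 and 16.0 RPKM. This second sum is not pyroptosis alone, as it holds Casp8. The mean of Casp8 was 23.4 RPKM in DCC IFN-gamma, 7.03 in DCC control and 16.7 in TUBO. In TUBO the caspase and gasdermin sum, at 60.4 and 58.6 RPKM, was above the necroptosis sum of 19.6 and 19.6 RPKM, and in DCC IFN-gamma it was below it.

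**Figure D4:**
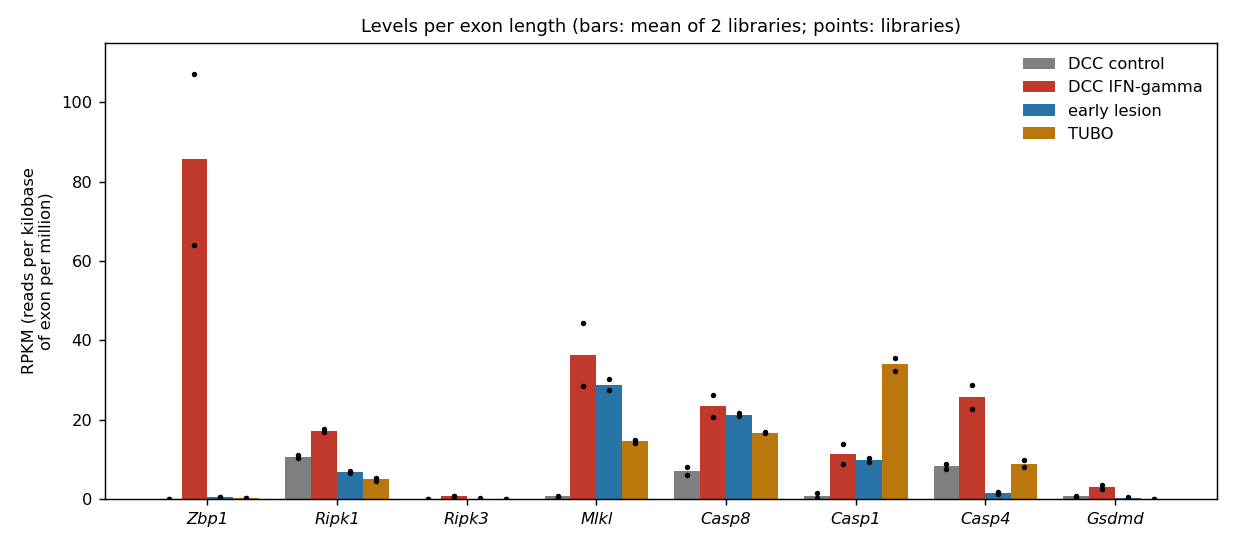
Level per exon length of the 8 members by group, in RPKM on a linear axis, with bars for the mean of 2 libraries and points for each library. Zbp1 leads in DCC IFN-gamma at 85.7 RPKM, Mlkl in early lesion at 28.8, Casp1 in TUBO at 33.9 and Ripk1 in DCC control at 10.6.

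Genes around the members were taken from lists of pathway genes, whose medians stand beside -0.20 over all tested genes. In the necroptosis signalling list, 12 of 31 tested genes rose with interferon-gamma and 0 fell (12.6% and 8.83% of all genes), with a median log2 fold change of 0.36, and with upper quartile factors 8 rose and 3 fell. None of the 8 members is in this or the next 3 lists. The count of 12 became 6 without DCC control replicate 1 and 7 without DCC control replicate 2. Tnfaip3, a ubiquitin editor that restrains RIPK1 and RIPK3 signalling, rose from 3.03 ± 0.534 to 80.5 ± 14.0 CPM (4.74 ± 0.24, adjusted p = 1.56e-06). Cflar, the catalytically inactive partner of CASP8, rose by 1.37 ± 0.16 (adjusted p = 2.75e-04), and Adar, the RNA editor that limits ligands of ZBP1, by 2.31 ± 0.28 (adjusted p = 5.42e-04). The calls of these 3 inhibitors held in every alternative run. Tlr3, a receptor for double-stranded RNA, rose from 7.24 to 65.1 CPM (3.17 ± 0.49, adjusted p = 0.00554), and Birc3, a ubiquitin ligase acting on RIPK1, from 10.2 to 31.3 CPM (1.62 ± 0.45, adjusted p = 0.0302). For Tlr3 the 2 DCC IFN-gamma libraries lay far apart (SD 43.1 CPM), as they did for Adar (mean 131 CPM, SD 57.2). Tnf, the cytokine that starts RIPK1 signalling, rose to 18.5 CPM (log2 fold change 3.60 ± 0.97, adjusted p = 0.0317), but was not called when any 1 DCC library was left out (adjusted p = 0.0718 to 0.193). Birc3 was not called with upper quartile factors (0.0553) or without DCC control replicate 1 (0.180), DCC control replicate 2 (0.0507) or DCC IFN-gamma replicate 1 (0.112). Leaving out either DCC control library took the Tlr3 difference out of the called genes (adjusted p = 0.0571 without replicate 1 and 0.104 without replicate 2). The adaptors between receptors and kinases did not pass: Fadd -0.14 ± 0.22 (adjusted p = 0.666), Tradd (0.356) and Ticam1 (0.416), and the receptor Tnfrsf1a was at 0.61 ± 0.22 (adjusted p = 0.0743).

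In the inflammasome and pyroptosis list, 4 of 25 tested genes rose and 2 fell, with a median of 0.52, counts near the 12.6% and 8.83% of all genes called in these directions. In the fit of only the 2 groups 7 rose, and without DCC control replicate 2 or DCC IFN-gamma replicate 1 only 1 fell. The 4 that rose were Il18bp, Ninj1, Naip2 and Irf2. Il18bp, the secreted inhibitor of IL18 and so not a part of the death machinery itself, rose from 1.16 to 107 CPM (6.55 ± 0.29, adjusted p = 7.66e-07). Ninj1, which ruptures the membrane after the pores have formed, rose from 14.2 to 45.1 CPM (1.67 ± 0.22, adjusted p = 4.70e-04). Naip2, a sensor of bacterial proteins, went from 2.28 to 10.8 CPM (2.22 ± 0.62, adjusted p = 0.0327), a call lost without DCC control replicate 1 (0.110) or DCC IFN-gamma replicate 1 (0.0815). Irf2, a transcription factor known to drive Gsdmd expression, went from 49.0 to 180 CPM (1.87 ± 0.18, adjusted p = 7.61e-05). Nlrp1a, an inflammasome sensor, fell from 12.4 to 2.98 CPM (-2.06 ± 0.36, adjusted p = 0.00278). Card6, a caspase-recruitment protein, also fell (-0.94 ± 0.26, adjusted p = 0.0272), a call lost without DCC control replicate 2 (0.209) or DCC IFN-gamma replicate 1 (0.0973). Other sensors and the adaptor did not pass: Pycard 1.84 and 6.11 CPM in DCC control and DCC IFN-gamma (adjusted p = 0.118), Nlrp3 1.35 and 7.05 CPM (0.198), and Aim2 3.06 and 9.42 CPM (0.397). Il18, a substrate of CASP1, was at 8.45 and 8.20 CPM (-0.04 ± 0.50, adjusted p = 0.959). Gsdme, another gasdermin, listed under its older symbol Dfna5, was at 12.6 and 18.5 CPM (0.55 ± 0.67, adjusted p = 0.571). In TUBO, where Casp1 was highest, Pycard, Nlrp3, Aim2 and Il18 were at 0 counts in both libraries.

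**Figure D5:**
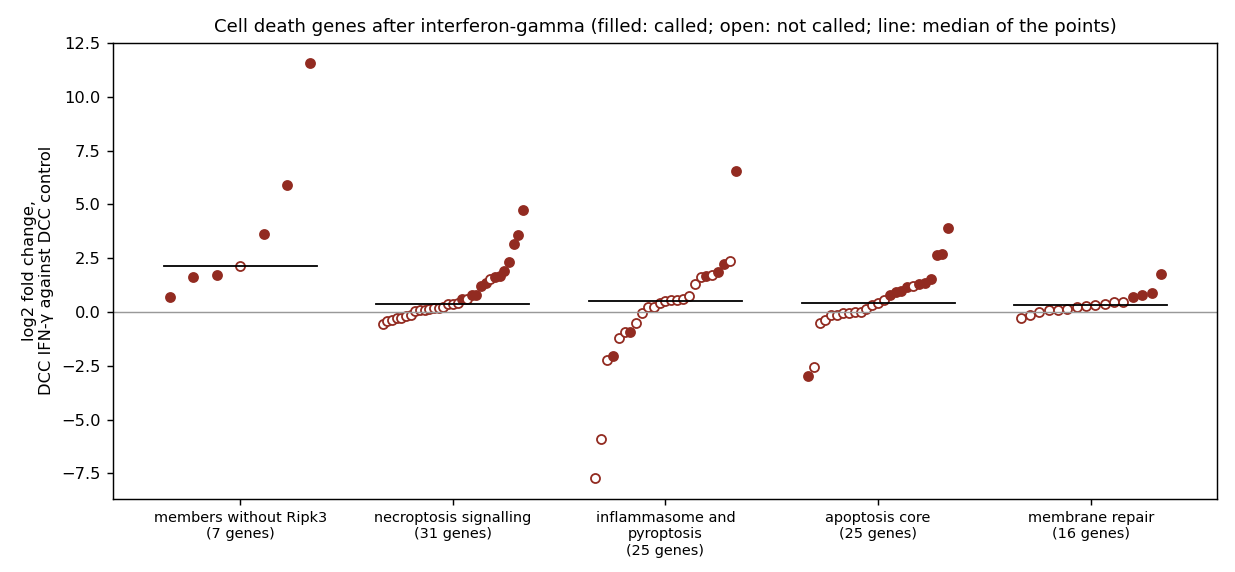
Log2 fold changes of DCC IFN-gamma against DCC control for the members and the genes of 4 pathway lists, 1 point per tested gene, filled where the adjusted p was under 0.05. Ripk3 is left out of the members. Filled points of the necroptosis signalling list are all above 0, 12 in number.

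In the apoptosis list, 10 of 25 genes rose and 1 fell (median 0.41; 12.6% and 8.83% of all genes), and without DCC IFN-gamma replicate 2 the genes that fell were 2. Bmf, a death-promoting BCL2 relative, fell from 9.82 to 1.24 CPM (-2.99 ± 0.33, adjusted p = 1.64e-04). Bcl2a1d, a survival gene of the BCL2 family, went from 0.475 ± 0.448 to 6.93 ± 1.24 CPM (mean ± SD, n = 2; log2 fold change 3.90, edgeR adjusted p = 0.0195), and was not called without DCC control replicate 2 (0.105), DCC IFN-gamma replicate 1 (0.138) or DCC IFN-gamma replicate 2 (0.0550). In the list of membrane repair genes (ESCRT components that shed damaged membrane), 4 of 16 rose and 0 fell (median 0.31), beside the same 12.6% and 8.83% of all genes. Among these 4, Chmp4b went from 114 to 211 CPM (0.89 ± 0.15, adjusted p = 0.00241) and Chmp4c from 0.399 to 1.47 CPM (1.77 ± 0.42, adjusted p = 0.0135). The others were Pdcd6ip (0.77 ± 0.14, adjusted p = 0.00343) and Chmp1b (0.68 ± 0.18, adjusted p = 0.0206). The count of membrane repair genes that rose was 2 without DCC control replicate 1, where Chmp4c was among those lost (adjusted p = 0.0821). Irf1, a transcription factor induced by interferon-gamma, rose from 13.7 to 941 CPM (6.09 ± 0.25, adjusted p = 7.66e-07).

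Between DCC control and cells of other origin, the lists had genes called on both sides, except membrane repair against TUBO with 0 higher. In DCC control against early lesion, necroptosis signalling had 7 genes higher and 9 lower of 31, and inflammasome and pyroptosis 5 and 6 of 25, where 19.1% of all genes were higher and 18.7% lower. Apoptosis had 3 higher and 8 lower of 25, and membrane repair 1 and 8 of 16. Without DCC control replicate 2 the higher inflammasome genes were 3. The lower membrane repair genes were 5 without DCC control replicate 1 or early lesion replicate 1, and the higher ones 0 without DCC control replicate 2 or early lesion replicate 2. Tlr3 was lower in DCC control than in early lesion (-4.89 ± 0.52, adjusted p = 4.46e-04), while Gsdme was higher (2.98 ± 0.74, adjusted p = 0.0129). Gsdme (Dfna5) was no longer called without DCC control replicate 2 (adjusted p = 0.0944), DCC IFN-gamma replicate 2 (0.0563) or early lesion replicate 1 (0.0799). Necroptosis signalling had 4 genes higher without DCC control replicate 1, and 3 without DCC control replicate 2 or either early lesion library. Against TUBO the counts were 4 and 7 for necroptosis signalling, 12 and 6 for inflammasome and pyroptosis, 3 and 11 for apoptosis, and 0 and 9 for membrane repair, beside 22.1% and 19.9% of all genes. Of these, the 7 lower necroptosis genes became 2 without DCC control replicate 2, and 4 without DCC control replicate 1, early lesion replicate 1 or TUBO replicate 1. With upper quartile factors that list had 7 genes higher and 4 lower. The 11 lower apoptosis genes became 7 without DCC control replicate 1 or TUBO replicate 2, and the 9 lower membrane repair genes became 5 without DCC control replicate 1 and 4 without TUBO replicate 1.

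Markers of other cell types also differed between the groups. The 16 macrophage and monocyte markers summed to 141 and 137 CPM in DCC control, 1628 and 1198 CPM in DCC IFN-gamma, 102 and 112 CPM in early lesion, and 80.6 and 113 CPM in TUBO. The sums in early lesion and TUBO are mostly Cd14, a lipopolysaccharide co-receptor, at 96.1 and 90.2 CPM, against 11.8 CPM in DCC control. In DCC control against early lesion 10 of the 16 were called higher and 1, Cd14, lower, beside 19.1% and 18.7% of all genes. Csf1r was at 17.7 CPM in DCC control and 0.312 CPM in early lesion, and Lyz2, a lysozyme gene of myeloid cells, at 19.6 and 0.156 CPM. Of these 16 genes 11 rose with interferon-gamma and 0 fell, and the count was 7 without DCC control replicate 1, DCC control replicate 2 or DCC IFN-gamma replicate 1. C1qb, a complement gene of tissue macrophages, went from 14.0 to 238 CPM (4.09 ± 0.28, adjusted p = 1.41e-05) and Csf1r, the macrophage growth factor receptor, from 17.7 to 170 CPM (3.27 ± 0.53, adjusted p = 0.00717). The other 5 were not called: Adgre1 (listed as Emr1, 1.31 to 15.9 CPM), Itgam (8.69 to 29.5), Mrc1 (8.22 to 5.18), Cx3cr1 (1.57 to 1.10) and Cd163. Cd163 was at 0.183 CPM in DCC control and 0.185 CPM in DCC IFN-gamma, against 2.31 CPM in early lesion and 1.51 CPM in TUBO. No macrophage marker was at 0 in the DCC IFN-gamma libraries, though some were thus low. Tyrobp, a macrophage signalling adaptor, was at 0 in all early lesion and TUBO libraries. The 7 pan-leukocyte markers summed to 60.9 and 56.0 CPM in DCC control, 517 and 477 CPM in DCC IFN-gamma, 903 and 816 CPM in early lesion, and 384 and 298 CPM in TUBO. Lcp1, an actin-bundling gene, made up most of the sums in early lesion and TUBO, at 857 and 341 CPM against 22.4 CPM in DCC control. Of the 7 markers 5 were called higher in DCC control than in early lesion and only Lcp1 lower. The 5 became 2 without DCC control replicate 1, DCC control replicate 2 or DCC IFN-gamma replicate 2, and 3 without DCC IFN-gamma replicate 1. The stromal sum went the other way, as given above, and was mostly Col1a1 (4087 to 467 CPM) and Col3a1 (3299 to 154 CPM). Of the 7 stromal markers 4 were called lower with interferon-gamma and 1 higher, beside 8.83% and 12.6% of all genes. The higher one was Pdgfra, from 25.0 to 89.8 CPM (1.84 ± 0.29, adjusted p = 0.00188). Pdgfrb (140 and 117 CPM, adjusted p = 0.789) and Dcn (135 and 61.1 CPM, 0.0524) did not pass. T and NK cell markers summed to at most 3.10 CPM in any library. The part of these markers in the rise of the 6 members was not tested, and neither was that of the reads outside genes in the DCC control libraries.

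The 3 genes closest in pattern to each member were sought by the correlation of log2 CPM over the 8 libraries, among 10523 genes. These libraries share their groups, so the values are descriptions. Zbp1 was closest to Dtx3l (r = 0.989), Irf9 (0.988) and Irf7 (0.986), all known interferon-response genes. Mlkl and Casp8 were close to each other (r = 0.993), and Nus1 and Apod were the other 2 genes nearest to both. Ripk1 was closest to Msn (0.997), Srxn1 (0.995) and Vopp1 (0.994), and Casp4 to Cdkn1a (0.998), Atf3 (0.991) and Med8 (0.989). For Casp1 they were Dnajc5 (0.974), Hccs (0.973) and Yme1l1 (0.973). Gsdmd was closest to Trim30d (0.986), Rac2 (0.979) and Arhgap30 (0.976), and Ripk3 to Phf11b (0.986), Med28 (0.978) and Ifi44l (0.956), the last pattern resting on few counts.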

How the data were processed

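The authors deposited raw counts per gene symbol for 8 libraries. The build mm10, TopHat and HTSeq 0.6.1 come per the submitters' processing notes, and RNeasy Mini columns and a Nugen Ovation kit, per the labels' protocols, gave RNA and libraries. Annotation and strand setting are not given in the sources used here. How reads on overlapping or antisense genes were assigned or set aside is therefore not known. The 5 closing lines of the table, with 35.2% to 63.7% of all reads, did not enter library sizes or tests. Coordinates and exon lengths come from GENCODE M21 (GRCm38).

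From the deposited counts, edgeR 4.0.16 (R 4.3.3) fitted 4 group means over all 8 libraries by its quasi-likelihood test, with TMM factors, filterByExpr at a minimum count of 10, and 4 residual degrees of freedom. Calls were made where p, adjusted by Benjamini-Hochberg over all 17069 genes, was under 0.05. SE is the log2 fold change over the square root of F. CPM and RPKM use TMM-scaled library sizes. In all, 6 comparisons were made, and no permutation test could be informative with 2 libraries per group. Every replicate pair differed beyond sampling noise. The chi-square over its degrees of freedom was 142 in DCC IFN-gamma and 15.5 to 31.1 in the other groups, while the 4 groups share the fitted estimate of spread. Intervals and the floor of 3 counts hold counting error alone, as reads with no molecular identifier need not be separate molecules.

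The members, lists and tests were chosen with earlier results of these data known. Named genes are the 8 members, a panel of 21 pathway genes, the 2 called genes per list and side with the largest change and at least 1 CPM in the higher group, and the 3 genes closest in pattern (mean of at least 5 CPM, prior count 2). Irf2, Chmp1b, Pdcd6ip and the named cell type markers are given outside this rule, after their values were seen. Some genes of the rule are not reported here. Alternatives were DESeq2 1.42.0, RLE or upper quartile scaling, no filter, a minimum of 50 counts in 2 or more libraries, a replicate block, only the 2 groups compared, each library left out, and DCC control replicate 1 with early lesion replicate 2 left out.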

Additional observations from a re-analysis of the deposited data

How the results depend on the processing

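With 2 libraries per group the estimate of spread rests on 4 residual degrees of freedom, and a lone library left after an omission is assumed to vary like the other groups. Members with few counts (Zbp1 in DCC control, Ripk3, Gsdmd) are limited by depth. Beside the omission of single libraries, the counts of called members were within 1.5 times of those reported except in 3 comparisons. In DCC control against TUBO, 2 members were called higher with no filter, with DESeq2 and with both libraries richest in reads outside genes left out (DCC control 1, early lesion 2) (reported: 1). The replicate numbers of the labels are only numbers: replicate differences correlated between groups at -0.43 to 0.10. With the replicate block, 0 members were called lower in DCC IFN-gamma against TUBO (reported: 1), and in TUBO against early lesion 1 was called higher and 1 lower (reported: 2 and 2). The calls that went were Casp1 in both comparisons and Ripk1 in the second; Zbp1 in DCC control against TUBO (adjusted p = 0.0614) and Tnf with interferon-gamma (0.0711) were also lost, and Casp8 in DCC IFN-gamma against TUBO was gained (0.0450). In TUBO against early lesion 0 were called lower with both left out. Leaving out 1 library at a time, the members called higher ranged from 5 to 6 in DCC IFN-gamma against DCC control, 2 to 3 in DCC control against early lesion, 1 to 2 in DCC control against TUBO, 3 to 4 in DCC IFN-gamma against early lesion, 4 to 6 in DCC IFN-gamma against TUBO, and 1 to 2 in TUBO against early lesion. Those called lower ranged from 0 to 0, 4 to 4, 3 to 4, 0 to 0, 0 to 1 and 0 to 3 in the same order. Among the values recomputed, the signs that turned belong to differences that had not passed: Casp4 in DCC control against TUBO with upper quartile factors (0.01) and without TUBO replicate 2 (0.05), and, in DCC IFN-gamma against early lesion without DCC IFN-gamma replicate 1, Mlkl (-0.02), Casp1 (-0.18) and Casp8 (-0.04). In DCC IFN-gamma against DCC control they were Il18 without DCC control replicate 2 (0.31), and Il18 (0.03), Fadd (0.08) and Ticam1 (-0.18) with DCC IFN-gamma replicate 2 left out. Over all omissions of 1 library these values reached -0.21 for Casp4, 0.58 for Mlkl, 0.45 for Casp1, 0.27 for Casp8, -0.32 for Il18, -0.35 for Fadd and 0.77 for Ticam1 at the other end of their ranges. Over all genes, DCC IFN-gamma against DCC control gave 2148 higher and 1508 lower calls, 2272 lower with DESeq2, 1193 and 827 without DCC control replicate 1, and 1017 and 637 with both libraries left out. The same omission of both gave 2054 and 2058 calls in DCC control against early lesion (reported: 3253 and 3188) and 793 and 1151 in TUBO against early lesion (reported: 1943 and 2174), where single omissions took the counts down to 1036 and 1278. In the membrane repair list 0 rose with both libraries left out. The cause of these changes was not tested.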
